A study of Homo sapiens with 4 samples.

Results

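The genes of the translation initiation factors (symbols EIF1 to EIF6, with the EIF4E-binding proteins) and of the MNK kinases MKNK1 and MKNK2 were examined for binding by HNRNPC and PABPC4. These were 53 of 20056 protein-coding genes in the reference table, chosen by symbol, with the kinases of the EIF2AK family and genes of the Y chromosome left out. A peak belonged to a gene when it was listed under that gene's NCBI Gene ID. This gave 45 of 9107 HNRNPC peak positions and 330 of 63507 PABPC4 peak positions. Both proteins were mapped by cross-linking and immunoprecipitation (CLIP) in the parental breast cancer line MDA-MB-231, with 2 samples each, cross-linked at 254 nm with an ultraviolet dose of 400 mJ/cm2. HNRNPC was mapped by irCLIP, and PABPC4 by PAPERCLIP, a method meant to start reverse transcription on the poly(A) tail and so mark mRNA 3′ ends. The paper names a custom primer and no added tail, but its text does not say where the primer starts. Not every PABPC4 peak marks a 3′ end. Introns held 60.2% of the whole PABPC4 list and 3′ UTRs 29.7%. No other treatment or genotype was compared.

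The samples of a protein were pooled into 1 list, and a spread between replicates cannot be given for any value. A peak's height is its number of pooled unique tags. It rises with the amount of the RNA as well as with binding, which cannot be told apart here. Heights were not compared between the lists, which come from different methods. The lists hold called peaks, so a gene without one is a gene in which none was called. Intervals are 95% Wilson intervals and cover counting error only, and peaks of a gene are not independent. Of 6 markers of this mesenchymal-like line (VIM, CD44, AXL, FOSL1, MSN and ANXA1), 6 had a PABPC4 3′ UTR peak, of 331 to 10197 tags, while of 5 epithelial or hormone receptor markers CDH1, EPCAM and GATA3 had one, of 56 to 108 tags, and ESR1 and PGR had none.

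Initiation brings the small ribosomal subunit to an mRNA. The factor eIF2 delivers the initiator tRNA and is recharged with GTP by eIF2B, eIF3 holds the subunit, eIF1 and eIF5 control the choice of start codon, and eIF5B joins the subunits. The cap is bound by eIF4E, which with the scaffold eIF4G and the helicase eIF4A forms eIF4F. The EIF4E-binding proteins block this assembly, and the MNK kinases, docked on eIF4G and switched on by ERK and p38, phosphorylate eIF4E. Poly(A)-binding proteins contact eIF4G from the mRNA's 3′ end.

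MKNK2 carried the tallest HNRNPC peak of the group. The group was chosen with this peak known, so its height is a description. It lay on the minus strand at chr19:2038916-2039176 (hg38) with 115 tags, the authors' p-value was 4.24e-10, and the next tallest peak of any of the 53 genes had 37 tags. It ranked 40 among all 9107 HNRNPC peaks and 5 among the 452 in 3′ UTRs, and held 18.7% of the summed HNRNPC height of the group. Alternative last exons give MKNK2 a long and a short protein, known as MNK2a and MNK2b, of 465 and 414 residues in the annotation used. The peak began 436 nt after the stop codon of the MNK2a transcript, in a last exon of 2386 nt. The MNK2b transcript skips this region, since its last exon is the final 365 nt of the gene, and the whole peak lay in its last intron (chr19:2037830-2040133, 2304 nt). Tags from the 3′ UTR of MNK2a and from the intron of MNK2b cannot be told apart. The other HNRNPC peak of MKNK2 lay in an intron of both transcripts (chr19:2041261-2041391, 17 tags).

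HNRNPC is known for binding runs of U, and the MKNK2 3′ UTR peak held none of 5 or more. Of its 261 bases, C made up 35.6%, G 28.7%, U 21.1% and A 14.6%, and the longest run of U was 3. No UUUUU lay in the 50 nt before it. The 6 bases GUGUCA began at base 114 of the peak and are shown in capitals, because many peaks of the HNRNPC list hold them.
MKNK2, HNRNPC peak in the 3′ UTR: cugucucuggagGUGUCAggcaggcaggug
In the peak or the 30 nt after it, GUGUCA was found at 45.7% of all HNRNPC peaks (44.7 to 46.7%). Of the 45 peaks of the group, 16 had it there, or 35.6% (23.2 to 50.2%), among them the MKNK2 3′ UTR peak. GUGUCA began in the last 20 nt of 23.3% of all HNRNPC peaks (22.5 to 24.2%) and of 7 of the 45 peaks of the group, or 15.6% (7.75 to 28.8%). The 17-tag intron peak of MKNK2 was one of those 7, and the 3′ UTR peak of 115 tags was not. What GUGUCA contributes to these peaks was not tested.

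**Figure D1:**
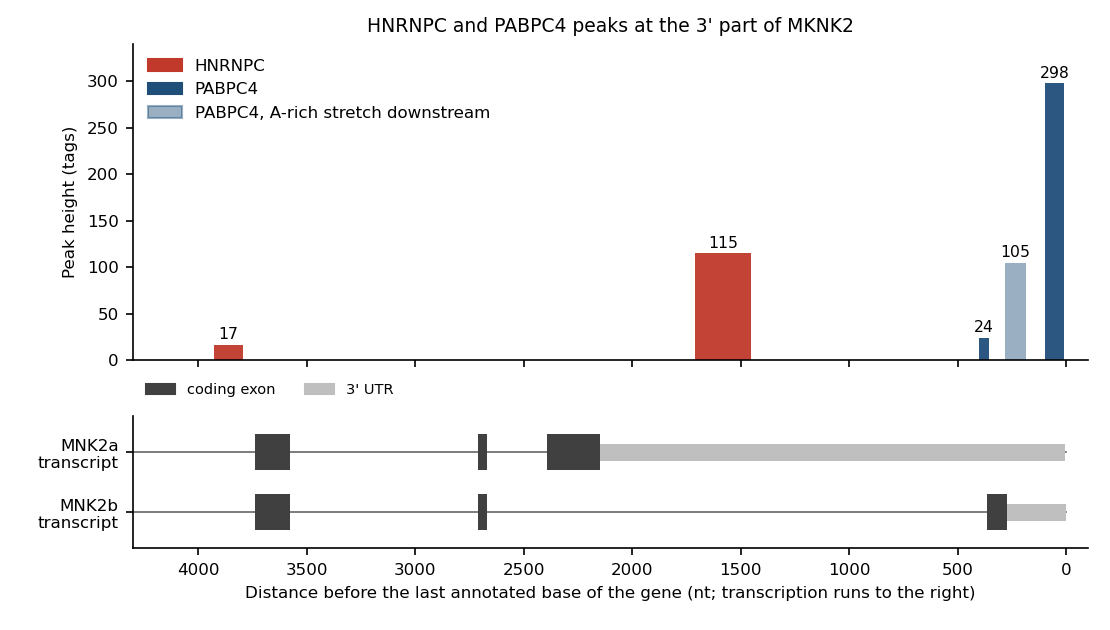
Peaks of HNRNPC and PABPC4 near the 3′ end of MKNK2, drawn above the exons of 2 transcripts (dark, coding; light, 3′ UTR). The horizontal axis gives nt before the gene's last annotated base and the vertical axis the peak height in tags. The HNRNPC peak of 115 tags lies in the 3′ UTR of the MNK2a transcript, where the MNK2b transcript has an intron, and the PABPC4 peak of 298 tags lies at the shared end.

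The 3′ end itself was marked by PABPC4. MKNK2 had 3 PABPC4 3′ UTR peaks, of 298, 105 and 24 tags, none of which began more than 401 nt before the gene's last annotated base. The tallest (chr19:2037473-2037560) ended at an annotated 3′ end, with the poly(A) signal AAUAAA at position -19, where the last base of the peak is position -1. The peak of 105 tags lay before an A-rich stretch, a run of 6 A or any 10 nt with 7 A in the 50 nt after a peak, where the primer could also start on the RNA itself. The HNRNPC peak lay upstream of all 3, and 1355 nt separated it from the tallest. MKNK1, the other MNK kinase, had no HNRNPC peak. Its own PABPC4 3′ UTR peak (chr1:46557419-46557487) had 140 tags, and it also held intron peaks of 124 and 105 tags and a peak of 38 tags in a non-coding exon. Another peak listed under its ID lay in the 3′ UTR of MOB3C. Both kinases thus had 1 tall peak at an annotated 3′ end. The last 30 bases of each are shown with the poly(A) signal in capitals.
MKNK2, PABPC4 peak: uguaaagauuuAAUAAAagucaaaaaacuu
MKNK1, PABPC4 peak: uugugcuuauuuuAAUAAAacugaaauucu

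HNRNPC peaks were listed under 20 of the 53 genes, or 37.7%, against 19.0% of all protein-coding genes. Among the 9520 genes with a PABPC4 peak in their own 3′ UTR the share was 34.4%, and among the 46 such genes of the group 41.3%. Such a peak is only a rough sign that the cells held the RNA. The 46 include EIF5AL1, whose tags are uncertain. By position, 44 of the 45 peaks lay inside a gene of the group, in 18 genes. Peaks listed under EIF2B5 and EIF6 lay in neighbouring genes. Both genes count among the 20 and among the 46, and 17 of the 46 held an HNRNPC peak inside the gene. The shares over all protein-coding genes also rest on gene IDs. An HNRNPC peak in the own 3′ UTR was found for 2 genes, MKNK2 and EIF2S3, or 3.77%, against 1.80% of all protein-coding genes. The MKNK2 peak was known when the group was chosen. Its part of this share was fixed beforehand, and the share shows no enrichment of the group. The median span was 28.2 kb for genes with an HNRNPC peak inside, 20.2 kb for the others and 27.4 kb over all protein-coding genes. The heights ran from 6 to 115 tags with a median of 10, against 11 in the whole list. None of the start codon factors (EIF1, EIF1B, EIF1AX, EIF1AD, EIF5) and none of the factors of subunit joining and later steps (EIF5A, EIF5A2, EIF5AL1, EIF5B, EIF6) held an HNRNPC peak.

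Most of these peaks were intronic. Introns held 32 of 45 HNRNPC peaks, or 71.1% (56.6 to 82.3%), against 85.5% of the whole list. Non-coding exons held 7, and coding sequence and 3′ UTRs held 3 each. With 1 transcript per gene the intron share was 86.7%, against 92.4% of the whole list. EIF4G3, a scaffold related to eIF4G1 with a span of 371 kb, held the most peaks, 12 intron peaks of 8 to 16 tags. EIF2S3 and EIF3E had 4 each and EIF4G1 had 3. EIF2A, MKNK2, EIF3B, EIF3H, EIF3K, EIF4E and EIF4EBP1 had 2 each. After MKNK2 the tallest peaks were those of EIF4B, a cofactor of the helicase (37 tags), and EIF3K, a small subunit of eIF3 (23 tags). EIF4G3, EIF3E and EIF4A2 followed with 16 tags each.

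**Figure D2:**
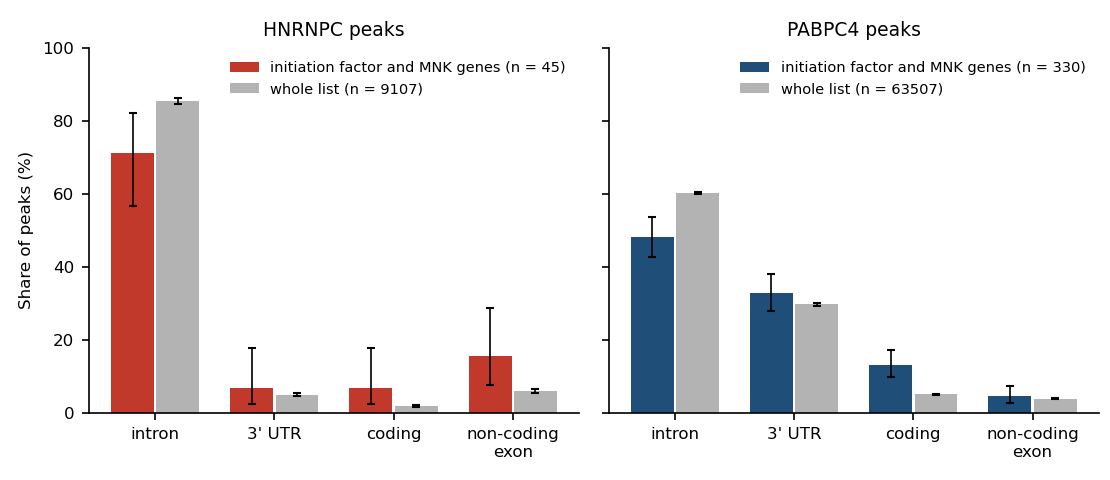
Share of peaks in introns, 3′ UTRs, coding sequence and non-coding exons for HNRNPC and PABPC4, in percent. Coloured bars stand for the 45 and 330 peaks of the 53 genes and grey bars for the whole lists, and error bars are 95% Wilson intervals. The intron bars of the 53 genes (71.1% and 48.2%) lie below those of the whole lists (85.5% and 60.2%).

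Outside introns there were 13 HNRNPC peaks in 8 genes. In EIF4A2, a helicase whose introns hold several small RNAs, the peak of 16 tags lay at the small nucleolar RNA SNORD2, and a 9-tag peak inside EIF4A1, listed under another ID, lay at SNORD10. EIF4G1 had coding peaks of 12 tags (chr3:184321477-184321564) and 9 tags (chr3:184317342-184317436), and EIF4E a 10-tag peak in a coding exon (chr4:98886447-98886550) that is intron in its main transcript. Non-coding exons held the peaks of EIF3G (15 tags), EIF2D (7 tags) and EIF3E (16, 12, 9 and 8 tags). All of these are also intron in the main transcript of their gene. The remaining 3 were the 3′ UTR peaks of MKNK2 and EIF2S3.

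U runs and Alu elements marked many of the smaller peaks. UUUUU lay in the peak or the 50 nt before it in 22 of 45, or 48.9% (35.0 to 63.0%), against 39.7% of the whole list. Alu-like sequence in antisense orientation, which carries U runs, was found at 22 of 45, the same share, against 36.9%. In sense orientation it was found at 0 of 45 (0 to 7.87%), against 1.49%. In EIF4G3, 9 of 12 peaks had antisense Alu-like sequence and 6 of 12 had UUUUU. The windows below show the longest U run, in capitals, before the EIF4B intron peak (chr12:53014853-53014951) and before a peak in the EIF2S3 3′ UTR.
EIF4B, intron, 37 tags: aaagcugcuugUUUUUUUcuuaaucaugua
EIF2S3, 3′ UTR, 8 tags: augcaguucugUUUUUUUguuuguuuuauu
Both runs were 7 nt long, and they began 17 and 21 nt before the peaks. Of the 22 peaks that reached the list's median height, 7 had UUUUU, or 31.8%.

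Besides MKNK2, only EIF2S3, the GTP-binding subunit of eIF2, had HNRNPC peaks in its own 3′ UTR. The HNRNPC peak of 9 tags lay between PABPC4 peaks, and that of 8 tags lay upstream of all PABPC4 peaks of this 3′ UTR. Its HNRNPC peaks (chrX:24077091-24077243, 8 tags, and chrX:24078054-24078150, 9 tags) both had antisense Alu-like sequence in the peak or within 100 nt of it. The authors' p-values were 0.0141 and 4.37e-04. Its 3 PABPC4 3′ UTR peaks had 24, 23 and 27 tags, so no end stood out. They ended 1343, 841 and 7 nt before the gene's last annotated base, while the HNRNPC peaks ended 1567 and 660 nt before it. The HNRNPC peak of 9 tags began 85 nt after the last base of the PABPC4 peak of 23 tags (chrX:24077945-24077969). This was the only peak of the 45 with a PABPC4 peak within 100 nt, none overlapped one, and the median gap was 2864 nt. With heights of 8 and 9 tags, both HNRNPC peaks lay below the list's median of 11.

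PABPC4 peaks in the own 3′ UTR were found for 46 of the 53 genes, or 86.8%, against 47.5% of all protein-coding genes. The tallest peak of a gene ran from 11 to 1659 tags with a median of 152.5, against 72.0 over the 9520 genes with such a peak. For 33 of the 46 genes it ended within 50 nt of an annotated 3′ end, for 32 it held AAUAAA or AUUAAA in its last 40 nt, and for 6 (EIF1B, EIF5, EIF3M, EIF4A1, EIF5A and EIF5AL1) it lay before an A-rich stretch. HNRNPC peaks inside the gene were present in 17 of the 46. EIF4B was the one gene with an HNRNPC peak and no PABPC4 3′ UTR peak.

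**Figure D3:**
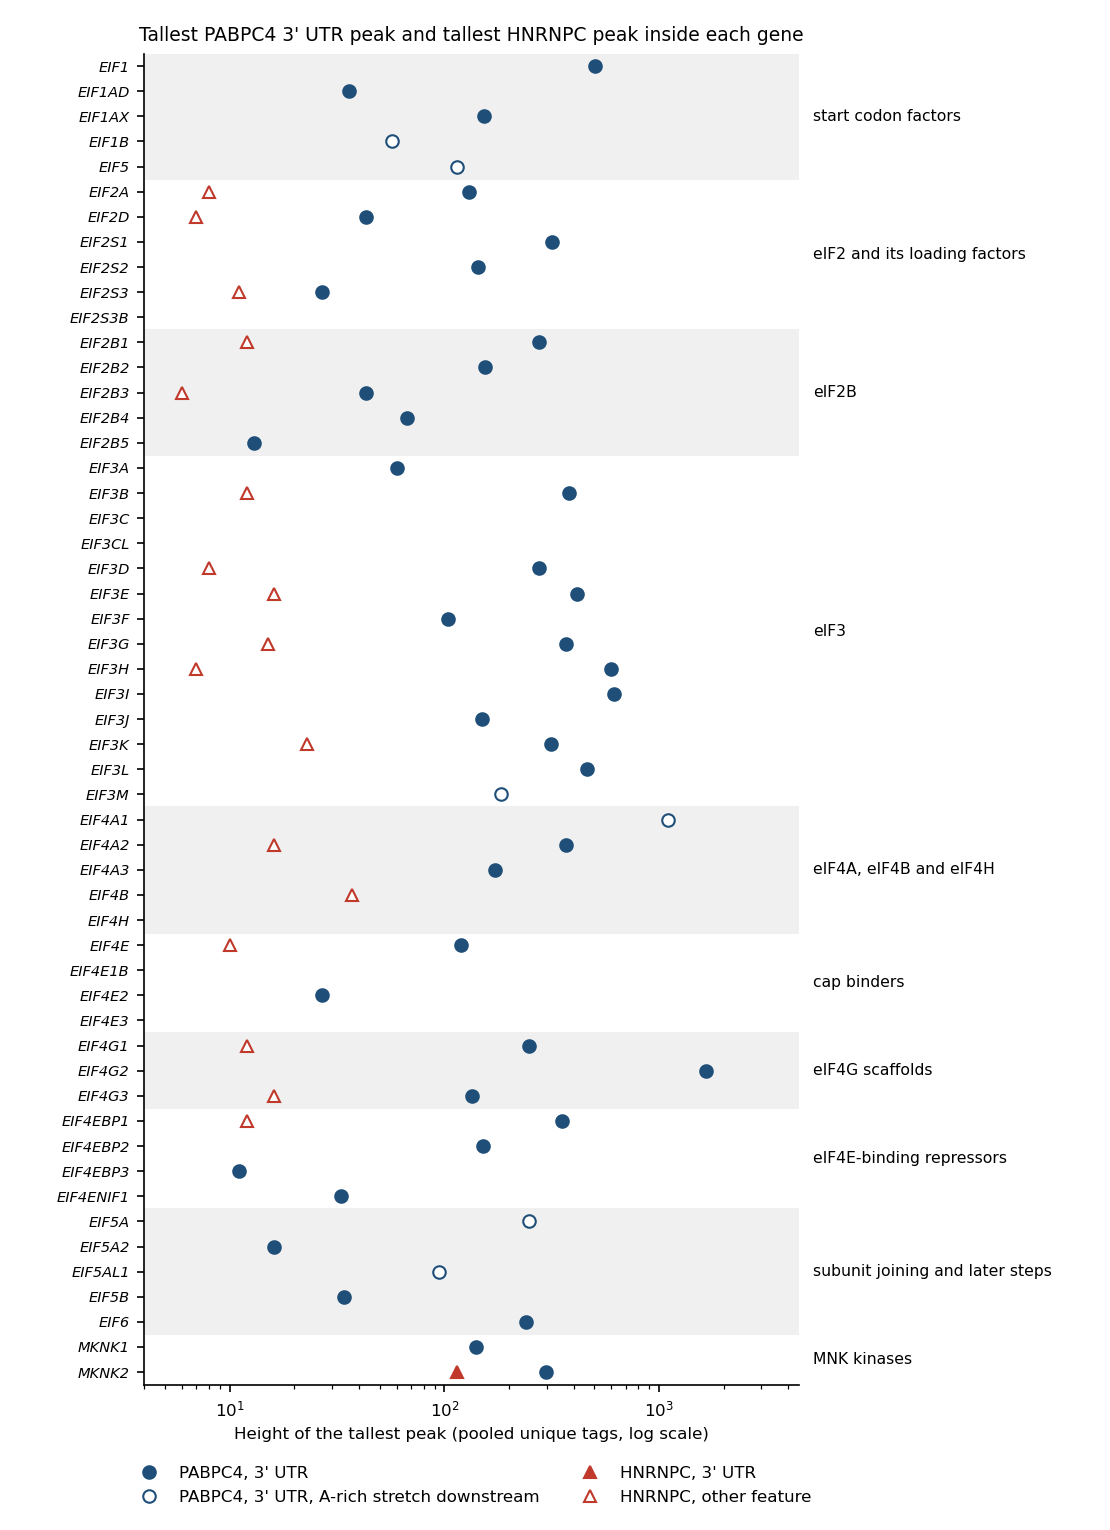
Height of the tallest PABPC4 3′ UTR peak (circles) and of the tallest HNRNPC peak (triangles) inside each of the 53 genes, in pooled unique tags on a log scale, grouped by role. Open circles have an A-rich stretch downstream, and filled triangles lie in a 3′ UTR. EIF4G2 (1659 tags) and EIF4A1 (1103 tags) hold the tallest PABPC4 peaks, and MKNK2 (115 tags) the one HNRNPC peak above 37 tags.

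The tallest single peaks were those of a scaffold and a helicase gene, EIF4G2 and EIF4A1. EIF4G2, which lacks the eIF4E-binding site of eIF4G1 and serves cap-independent initiation, had a single 3′ UTR peak of 1659 tags at an annotated end (chr11:10797051-10797232), and 0.392% of all PABPC4 3′ UTR peaks were taller. EIF4G1 had 249 and 66 tags and EIF4G3 134 tags in its tallest. EIF4A1, the main helicase of eIF4F, had peaks of 1103 tags (chr17:7578608-7578706) and 1030 tags (chr17:7578868-7579007). The sequences at both ends differed. The taller peak ran into 16 A in a row in the genome, of which 6 lay in the peak. It held no poly(A) signal and ended 9 nt before an annotated end. The other peak held AAUAAA at position -24 and ended 1 nt past an annotated end.
EIF4A1, 1103 tags, run of A in capitals: uucucccAAAAAAAAAAAAAAAAcacuaau
EIF4A1, 1030 tags, poly(A) signal in capitals: auucugAAUAAAaugacuuggaaacugccu
EIF4A2 had 368 tags at its annotated end and EIF4A3, which also serves the exon junction complex, 173 tags. EIF4B and EIF4H, cofactors of the helicase, had intron peaks alone, 9 with a tallest of 97 tags and 2 with a tallest of 54 tags.

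Subunits of eIF3 had tall peaks in many genes. Of 14 eIF3 genes, 12 had a PABPC4 3′ UTR peak. The tallest per gene ran from 60 to 620 tags, with a median of 342.5. The median was higher, 368, for eIF4A, eIF4B and eIF4H, where 3 genes had such a peak. It was 249 for the scaffolds and from 67 to 219 in the other role groups. EIF3I (620 tags), EIF3H (597), EIF3L (460), EIF3E (416), EIF3B (380) and EIF3G (370) were among the 10 highest genes of the whole set, all with the peak ending within 50 nt of an annotated end. EIF3A, the largest subunit, had the lowest, 60 tags, 1364 nt before its annotated end and with a poly(A) signal. Among the start codon factors, EIF1 had 504 tags, EIF1AX 153, EIF5 115, EIF1B 57 and EIF1AD 36. In eIF2, EIF2S1, the subunit phosphorylated under stress, had 317 tags, EIF2S2 143 and EIF2S3 27. Of the eIF2B subunits, EIF2B1 had 276 tags, EIF2B2 155, EIF2B4 67, EIF2B3 43 and EIF2B5 13. EIF2S1 and EIF2B1 thus stood highest in their groups. The windows below are the last 30 bases of the tallest peaks of EIF4G2, EIF3I, EIF1 and EIF2S1, with the poly(A) signal in capitals.
EIF4G2: ucuaucAAUAAAcauugugauacuugaugu
EIF3I: guuugguAAUAAAuggcuucuggucagaua
EIF1: auuuaAAUAAAacuuguuuucagaaauacc
EIF2S1: caaacaucaAAUAAAuuucugggauauuua

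Cap binders and their repressors spanned a wide range. EIF4E had 119 tags in its tallest peak, and EIF4E2, a cap-binding relative linked to repression, 27. Among the repressors, EIF4EBP1 had 352 tags, EIF4EBP2 152, EIF4ENIF1, which carries eIF4E to the nucleus, 33, and EIF4EBP3 11. The peak of EIF4EBP3 also lay in the 3′ UTR of the readthrough gene ANKHD1-EIF4EBP3. EIF5A, the elongation and termination factor that carries hypusine, had 248 tags before an A-rich stretch and 44 tags at its annotated end, and EIF5A2 16 tags. EIF6, which keeps the subunits apart, had 239 tags and EIF5B 34. EIF5AL1, an intronless relative of EIF5A, had 1 peak of 94 tags before an A-rich stretch, and 32 of the 51 nt of this peak matched the EIF5A transcript without a mismatch, so its tags are uncertain.

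No peak in either list was found for EIF2S3B, EIF3C, EIF3CL, EIF4E1B and EIF4E3. Near-identical copies touch 3 of these 5. The EIF3CL transcript matched that of EIF3C at 99.9% over 2913 nt, and EIF2S3B matched EIF2S3 at 94.8% over 2655 aligned positions. How reads that fit both copies were treated is not given in the sources used here, and the absence of a peak is uncertain for such genes.

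Several genes had more than 1 PABPC4 3′ UTR peak. Neighbouring peaks were not merged, so a count of peaks is not a count of separate 3′ ends. The peaks of EIF3B (chr7:2380616-2380671 and chr7:2380674-2380741) and of EIF3L (chr22:37888468-37888532 and chr22:37888543-37888630) lay close together. Of the 46 genes, 24 had 2 or more PABPC4 3′ UTR peaks, or 52.2%, against 49.99% of all genes with such a peak. The tallest held a median of 60.7% of a gene's summed 3′ UTR height, against 61.9% over all genes. It was the most distal in 16 of the 24, or 66.7%, against 47.1% over all genes with several. When peaks before A-rich stretches were left out, 18 genes had 2 or more. EIF4E, EIF4E2, EIF3E and EIF4G3 had 5 peaks each and EIF1, EIF2S1, EIF3J and EIF4EBP2 had 4 each.

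In EIF2S1, EIF2A and EIF4E the peak nearest the stop codon was the tallest. The first peak was also the tallest in EIF1AD (36 and 11 tags), EIF5A and EIF4E2. The EIF2S1 peaks had 317, 64, 69 and 15 tags in the order of transcription, the first ending 2657 nt before the last annotated base and the last ending 6 nt before it. In EIF2A, a factor that can deliver initiator tRNA without eIF2, the order was 130, 21 and 10 tags. In EIF4E it was 119, 40, 18, 48 and 48 tags, and the first peak ended 783 nt before the last annotated base and 706 nt from the nearest annotated end. The distal peaks were thus low in EIF2S1 and EIF2A, while in EIF4E they reached 48 tags. Part of the EIF4E proximal peak (chr4:98880059-98880120) is shown with its poly(A) signal in capitals.
EIF4E: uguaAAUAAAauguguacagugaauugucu
In EIF3J the order was 68, 33, 150 and 140 tags, so the last peaks were of like height. In EIF1 it was 243, 323, 44 and 504 tags, all ending at least 1020 nt before the last annotated base. The peaks of 323 and 504 tags ended 4 and 2 nt past annotated 3′ ends. In EIF4E2 peaks of 27 and 14 tags were followed farther downstream by peaks of 24, 15 and 26 tags.

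**Figure D4:**
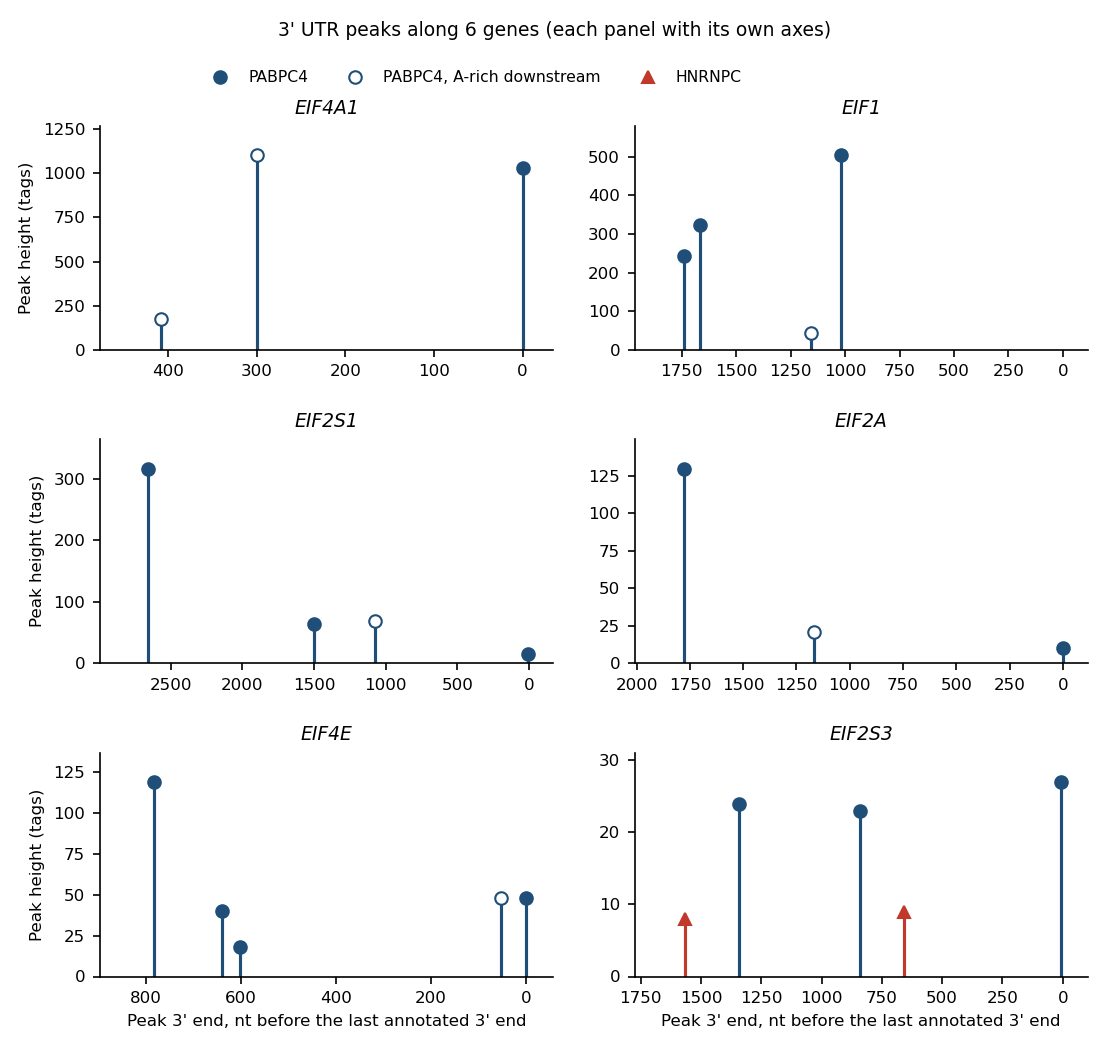
Heights of 3′ UTR peaks along EIF4A1, EIF1, EIF2S1, EIF2A, EIF4E and EIF2S3. The horizontal axis gives nt from the peak's 3′ end to the last annotated 3′ end of the gene and the vertical axis the height in tags, with axes set for each panel. Circles are PABPC4 peaks, open where an A-rich stretch follows, and triangles are HNRNPC peaks. The tallest peak is the first one in EIF2S1, EIF2A and EIF4E, and the 3 PABPC4 peaks of EIF2S3 lie between 23 and 27 tags.

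For 6 genes the tallest 3′ UTR peak held a poly(A) signal, had no A-rich stretch after it and ended more than 50 nt from every annotated 3′ end. The distance was 1364 nt in EIF3A, 1125 nt in EIF2S2, 706 nt in EIF4E, 622 nt in EIF2B1, 191 nt in EIF2S1 and 86 nt in EIF3J. In EIF2S2 and EIF2B1 it was the one PABPC4 peak of the 3′ UTR. Of the 108 PABPC4 3′ UTR peaks listed under the group's IDs, 96 lay in the own 3′ UTR of a gene of the group, and the others in 3′ UTRs of other genes such as PSMD2 and AP2M1. Of the 108, 66 held a poly(A) signal in their last 40 nt, or 61.1% (51.7 to 69.8%), against 47.1% of the whole list. Within 50 nt of an annotated end lay 63, or 58.3% (48.9 to 67.2%), against 54.6%. An A-rich stretch followed 26, or 24.1% (16.99 to 32.9%), against 32.0%.

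PABPC4 peaks in coding sequence were concentrated in EIF5B and EIF3A. Coding sequence held 43 of the 330 PABPC4 peaks, or 13.03% (9.82 to 17.1%), against 5.09% of the whole list. EIF5B held 12 of them and EIF3A 11, and without these genes the share was 6.69%. The coding peaks of EIF5B reached 382, 333 and 329 tags, while its 3′ UTR peak had 34. Its coding sequence holds runs of A, shown in capitals at the peaks of 382 tags (chr2:99360240-99360366) and 333 tags (chr2:99364268-99364324).
EIF5B, 382 tags: agAAAAAAgagAAAAAAAAgcaggacuuug
EIF5B, 333 tags: gauuggaacaagAAAAAAgagaaaggaaaa
An A-rich stretch in or after the peak was present at 31 of the 43 coding peaks, or 72.1%, and at 73.7% of all coding PABPC4 peaks. The tallest coding peak of EIF3A had 140 tags.

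Introns held 159 PABPC4 peaks, or 48.2% (42.8 to 53.6%), against 60.2% of the whole list. EIF4G3 alone had 52, of 9 to 130 tags with a median of 32.0, and 38 of these had Alu-like sequence in sense orientation. The tallest intron peaks were those of EIF5B (220 tags), EIF3K (199), EIF3H (179), EIF4G3 (130) and EIF3J (128). Those of EIF5B, EIF3K and EIF3H lay before an A-rich stretch, and those of EIF4G3 and EIF3J held one inside the peak. Over the group, an A-rich stretch followed 106 of 159, or 66.7% (59.02 to 73.5%), against 71.2%, and stretches inside a peak were not counted. Sense Alu-like sequence, which ends in a run of A, was found at 121, or 76.1% (68.9 to 82.1%), against 59.7%. A poly(A) signal without an A-rich stretch was found at 0 of 159, and at 1.99% of the whole list. A count of 0 allows a share of up to 1.89% by 3 counts of the total and 2.36% by the Wilson interval. The whole-list share of 1.99% lies between these limits, so a difference cannot be judged at this number of peaks.

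The gene ID under which a peak was listed did not always name the gene it lay in. Of 24 PABPC4 peaks listed under EIF2B5, 2 lay in EIF2B5, 8 in EIF4G1 and 14 in neither, among them the 3′ UTR peaks of PSMD2 (663 tags) and AP2M1 (603 tags). In all, 311 of the 330 PABPC4 positions lay inside a gene of the group. The values given above for single genes rest on peaks inside the gene. Besides these, 2 PABPC4 peaks inside EIF4A1, of 39 and 13 tags, were listed under another ID.

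Related genes were counted in the same way. Over all protein-coding genes, 47.5% had a PABPC4 peak in the own 3′ UTR, with a median tallest height of 72.0 tags. An HNRNPC peak was listed for 19.0% of all protein-coding genes and for 34.4% of those with such a PABPC4 peak. In the own 3′ UTR the HNRNPC share was 1.80%. Of 12 elongation and termination factors, 10 had a PABPC4 3′ UTR peak (17 to 1957 tags, median 168) and 4 had 7 HNRNPC peaks in all, none in a 3′ UTR. Of 21 regulators of initiation, which include the eIF2 kinases, mTOR and the MAP kinases upstream of MNK, 17 had a PABPC4 3′ UTR peak (8 to 2204 tags, median 95) and 6 had 13 HNRNPC peaks. One of these 6, EIF2AK2, had 1 of its 2 HNRNPC peaks in a 3′ UTR. The tallest HNRNPC peak in these lists had 77 tags, in PABPC1.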

How the data were processed

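Binding of HNRNPC (irCLIP) and PABPC4 (PAPERCLIP) was measured in MDA-MB-231 cells, 2 samples each. The submitters' processing notes name UMI-tools, cutadapt, BWA (0.7.17) and hg38 for all samples. For HNRNPC the authors called peaks with CTK on pooled replicates. The peak calling for PABPC4 is not given in the sources used here, though its list has the same layout and is also pooled. The HNRNPC experiment is called irCLIP by the labels and HITS-CLIP by the name of the deposited list. The deposited signal is a peak's height in unique tags, not scaled to depth. Library totals were not analysed here. Positions listed under several gene IDs were counted once and assigned by its centre to GENCODE 44 features in the order 3′ UTR, coding sequence, 5′ UTR, non-coding exon, intron. 0 peaks ran past a chromosome end of the reference. Alu-like sequence was found with BLAST 2.17.0 against the 7SL RNA gene (100 nt added on each side, E-value of at most 1e-05). Python 3.11.15, pandas 2.3.3 and scipy 1.17.1 were used, and scripts were tested on simulated data. RefSeq symbols named the genes.

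Members and lists were chosen with earlier results of these data known, so no list was tested. Named in full were the MNK kinases, genes with HNRNPC peaks outside introns, the 5 genes with most or tallest HNRNPC peaks, the 10 genes whose 3′ UTR peak of PABPC4 was tallest, the 5 with most 3′ UTR or tallest intron PABPC4 peaks, genes without peaks, and HNRNPC and PABPC4 pairs within 100 nt. Alternatives covered p-values, heights, windows, motifs and gene assignment.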

Additional observations from a re-analysis of the deposited data

How the results depend on the processing

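Of 57 alternative values for 13 results, 43 stayed within 1.5 times the main count or within the main value's interval. Taller peaks alone (at or above the list's median height) left 22 of 45 HNRNPC and 204 of 330 PABPC4 positions and moved the UUUUU share to 31.8%. That share was 64.4% with UUUU, 28.9% with UUUUUU and 13.3% in the peak alone. With 1 transcript per gene the HNRNPC intron share was 86.7%. Without peaks before an A-rich stretch, PABPC4 3′ UTR peaks made up 50.9%, and 60 of these 82, or 73.2%, held a poly(A) signal. Over all 108 peaks, AAUAAA alone was held by 44.4%. Within 100 nt of an annotated end lay 68.5%. Intron peaks with an A-rich stretch fell to 56.6% with 6 A in a row and 49.1% in a 25 nt window. Chosen after seeing the data were leaving out EIF5B and EIF3A (coding share 6.69%), leaving out peaks with an A-rich stretch in or after them (coding share 12.5%), leaving out EIF4G3, and counting peaks inside member genes alone. The causes were not tested, beyond what each alternative leaves out by construction. No paired analysis was possible because peaks were called on pooled replicates, and leaving out a replicate was not possible for the same reason. Peaks of few tags, such as those of EIF2S3, rest on the smallest depth.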
